A study of Basiliscus vittatus and Chrysopelea ornata and Dasypeltis gansi with 10 samples.

Results

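The cerebellum of the sand boa Eryx colubrinus was compared with that of 4 other snakes, the corn snake Pantherophis guttatus, the ornate flying snake Chrysopelea ornata, the egg-eating snake Dasypeltis gansi and the ball python Python regius. E. colubrinus is 1 of the 10 species in the series and was chosen because the study classed it, and none of the other 4 snakes, as a facultative burrower. It is also the only member of the family Boidae among the 5 snakes, so burrowing cannot be told apart from lineage. Of the 630 orthologous genes measured, 96 (15.2%) lay above the range of the 4 other snakes in E. colubrinus and 130 (20.6%) lay below it, so that 226 (35.9%) were outside and 404 were inside. Averaged over the 5 snakes, a snake is the highest in 1 of 5 genes and the lowest in 1 of 5. The share above was under this and the share below close to it, so these counts do not set E. colubrinus apart. All animals were adult and wild-type, no treatment is named in the labels, and RNA came from whole dissected cerebellum. The other 5 species of the series were lizards, which served only as an outer reference: Pseudopus apodus, Pogona vitticeps, Lepidothyris fernandi (named Mochlus fernandi in the sample records), Trioceros jacksonii and Basiliscus vittatus.

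Each species had 1 column of values, so E. colubrinus was n = 1, the other snakes were n = 4, and the spread within a species is unknown. Values were FPKM, a measure in which the read fragments of a transcript are scaled to its length and to the mapped reads of the library. They were taken as log2(FPKM + 1), and each species was centred to the same median, so that a value is read relative to the middle gene of its own cerebellum. A gene was outside the range when its centred value in E. colubrinus was higher or lower than in each of the 4 other snakes, and the gap is the distance to the nearest of them on this log2 scale. Differences, also given in brackets after the values, are on the log2 scale. Each is E. colubrinus minus the mean of the 4 other snakes ± the standard error from limma. That error draws the gene's spread among the 4 other snakes towards a spread shared by all genes. It also assumes that E. colubrinus varies like them. The ± is therefore not the spread of the gene's own 4 values.

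The cerebellar cortex is built from a few neuron types. Granule cells, the most numerous, receive input from the rest of the brain and excite Purkinje cells, which integrate it through glutamate receptors and calcium release and send the only output of the cortex. Sand boas are stout snakes that move in and under loose sand and ambush prey, whereas the other 4 snakes are known mainly from the ground or from trees.

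Scale differed between the species and bears on every count below. E. colubrinus had the highest sum of the 630 values, 15880 FPKM against 10249 to 15858 in the other snakes, and the highest median of all 10 species, 19.8 FPKM against 10.1 to 17.3 in the other snakes. Without centring, 199 genes lay above and 58 below the range, with quantile normalization 137 and 121, and with the species scaled to the same sum 167 and 86, so that the share of outside genes that were above was 42.5% with centring, 77.4% without it, 53.1% and 66.0%. The median difference over all genes was -0.11 with centring and 0.40 without it. All 96 genes above the range were above it without centring as well, which was fixed in advance by the highest median of E. colubrinus. All 96 were also above it with the same sum. There E. colubrinus again has the highest median of the 5 snakes, so this was largely fixed in advance too. With quantile normalization 91 (14.4% of all genes) stayed above, and thus in all 4 scalings. Staying above in all 4 scalings was therefore decided by quantile normalization alone. Of the 130 genes below, 57 (9.05% of all genes) were below in all 4 scalings, so that a gene counted below here often had an FPKM value inside the range of the other snakes.

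**Figure D1:**
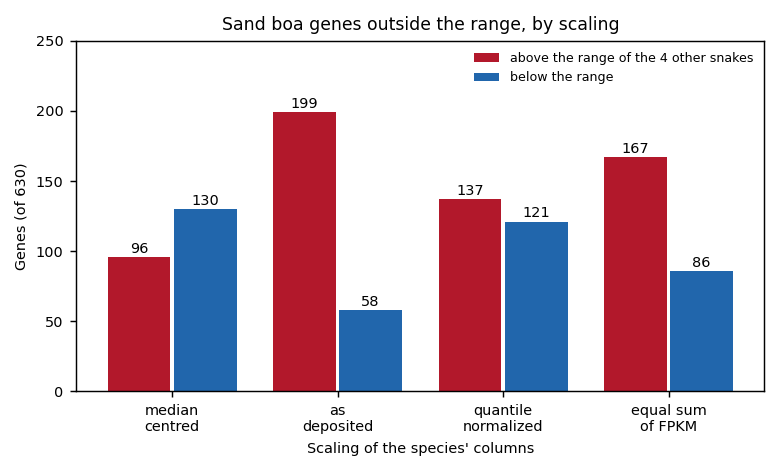
Number of the 630 genes that lay above (red) or below (blue) the range of the 4 other snakes in E. colubrinus under 4 scalings of the species' columns. Genes above outnumbered those below in 3 of the scalings, and the order turned under median centring, with 96 above and 130 below.

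Most genes outside the range were only a little outside. Among the 96 above, the median gap was 0.39 and the largest 2.08, and 9 genes (1.43% of all) were above by over 1 log2 unit. Among the 130 below, the median gap was 0.46 and the largest 4.30, and 26 genes (4.13% of all) were below by over 1 log2 unit. At the edge, general transcription factor 3C polypeptide 2 was just outside above (4.55 in E. colubrinus against 4.54 in P. guttatus) and teneurin-2 just inside (3.43 against 3.44 in P. regius), while fatty acid synthase (4.92) and ADP-dependent glucokinase (1.60) were as close to P. regius on the lower side. A range over 3 snakes cannot be wider than one over 4, and the counts were higher when 1 snake was left out: without D. gansi 145 genes lay above, 25 of them by over 1 log2 unit, without P. regius 19 lay above and 43 below by over 1 log2 unit, and without P. guttatus 16 lay above and 39 below by as much.

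No gene passed an adjusted p of 0.05 in limma (Benjamini-Hochberg over 630 genes), 0 higher (0%) and 0 lower (0%). The smallest adjusted p was 0.125, for inactive ubiquitin carboxyl-terminal hydrolase 54, and the next was 0.998. An exact permutation test of 1 species against 4 cannot give a p under 0.2. The positions described here are therefore descriptions of 1 column of values per species, in which the number of animals is not stated, and the 4 other snakes are not independent samples, since the 3 colubrids (P. guttatus, C. ornata and D. gansi) share ancestry.

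**Figure D2:**
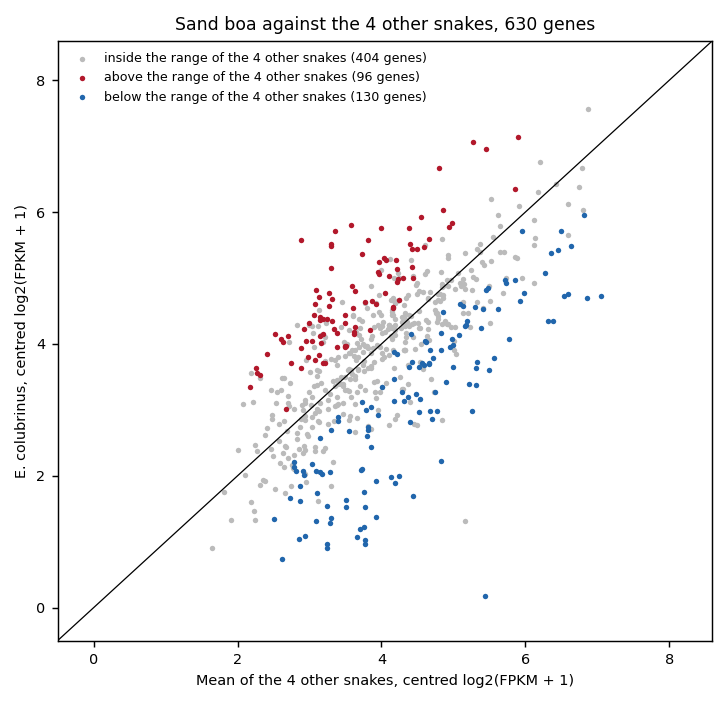
Centred log2(FPKM + 1) of each of the 630 genes in E. colubrinus (vertical) against the mean of the 4 other snakes (horizontal), with the line of equal values. Red points are the 96 genes above the range of the 4 other snakes and blue points the 130 below it. The lowest point, at 0.18 in E. colubrinus, is inactive ubiquitin carboxyl-terminal hydrolase 54.

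The 5 lizards placed these genes in a wider frame. Of the 96 genes above, 93 were also higher than the mean of the lizards and 51 (8.1% of all genes) were above every one of the 9 other species. Of the 130 genes below, 121 were lower than the lizard mean and 73 (11.6% of all genes) were below all 9. The genes were picked by their extreme value in E. colubrinus, and the same value was set against the lizards, so these counts are largely fixed by the choice of genes and are no independent support for it. Across genes, the profile of E. colubrinus was closest to that of P. regius (Pearson's r = 0.59 on the log2 scale). Among the other snakes r was 0.54 for P. guttatus, 0.49 for C. ornata and 0.35 for D. gansi. The 5 lizards were at 0.40 to 0.46, each higher than D. gansi. These r are across the 630 genes, which are not independent, and species also differ in scale.

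Supervillin was the gene farthest above the range, and its relative gelsolin was also among the 12 farthest. Supervillin, a membrane-associated protein of the villin and gelsolin superfamily that binds actin filaments and myosin II, was at 62.2 FPKM in E. colubrinus against 6.58 in P. guttatus, 6.98 in C. ornata, 5.36 in D. gansi and 4.69 in P. regius. The 4 other snakes were close together, and the 5 lizards, at 1.49 to 7.57 FPKM, were as low, with a difference of 2.69 ± 0.80 from the snakes. Gelsolin, which severs and caps actin filaments when calcium rises, was at 134 FPKM in E. colubrinus, followed by 56.4 in P. regius, 32.8 in P. guttatus, 14.4 in C. ornata and 13.9 in D. gansi, a difference of 1.87 ± 0.83. Both were above all 9 other species. Gelsolin is also enriched in oligodendrocytes in mammals.

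Of these 12 genes, 3 act in vesicle traffic, a grouping made after their values were seen. Rabenosyn-5 and coatomer subunit gamma-2 are on the membrane trafficking list of 32 genes described below, and TBC1 domain family member 23 is not. Traffic genes were also among the 12 farthest below, namely dnaJ homolog subfamily C member 13, which is on that list, and lysosomal-trafficking regulator. TBC1 domain family member 23, a trans-Golgi protein that captures vesicles arriving from endosomes, was at 68.9 FPKM in E. colubrinus against 5.45 in P. guttatus, 11.03 in C. ornata, 6.47 in D. gansi and 13.2 in P. regius, a difference of 2.36 ± 0.85, and inside the span of the lizards once centred. Rabenosyn-5, an effector of the small GTPase Rab5 that acts in fusion and recycling of early endosomes, was at 46.3 FPKM against 9.98 in P. guttatus, 3.65 in C. ornata, 7.0 in D. gansi and 16.4 in P. regius (1.85 ± 0.80). Coatomer subunit gamma-2, part of the COPI coat that carries cargo within the Golgi and back to the endoplasmic reticulum, was at 36.6 FPKM against 2.73 to 11.3 in the other snakes (1.74 ± 0.81). In each of these 3 genes E. colubrinus was the only snake over 20 FPKM.

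Enzymes and regulators of other kinds made up the rest of the 12 genes farthest above. Glycogen debranching enzyme, needed to break glycogen down fully to glucose units, was at 58.3 FPKM in E. colubrinus against 10.6 in P. guttatus, 4.16 in C. ornata, 6.38 in D. gansi and 15.3 in P. regius, above all 9 other species (2.17 ± 0.77). Stathmin-4, a neuronal member of the stathmin family that binds tubulin and destabilizes microtubules, was at 62.3 FPKM against 10.1 in P. guttatus, 10.5 in C. ornata, 15.7 in D. gansi and 13.1 in P. regius (1.75 ± 0.80). No other snake overlapped with E. colubrinus in either gene, which holds by definition for the 15.2% of all genes above the range. Nicotinamide riboside kinase 2-like, whose name marks it as a loose match, was at 60.1 FPKM against 15.1 in P. guttatus, 0.66 in C. ornata, 16.9 in D. gansi and 13.8 in P. regius (2.22 ± 1.16), the low C. ornata value giving it a wide spread. Membrane-bound transcription factor site-1 protease, which cleaves SREBP, the sterol-regulated transcription factor, was at 53.8 FPKM against 5.07 to 22.1. Malignant T-cell-amplified sequence 1, a translation re-initiation factor, was at 86.3 FPKM against 19.8 to 37.6. The nuclear RNA-binding protein matrin-3 was at 164 FPKM against 18.4 to 76.1, and tubulin polyglutamylase TTLL5, which adds glutamate chains to tubulin, at 22.2 FPKM against 2.56 to 8.55. All 12 were above the range in each of the 4 scalings, of which only quantile normalization moved any of the 96 genes from above it.

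**Figure D3:**
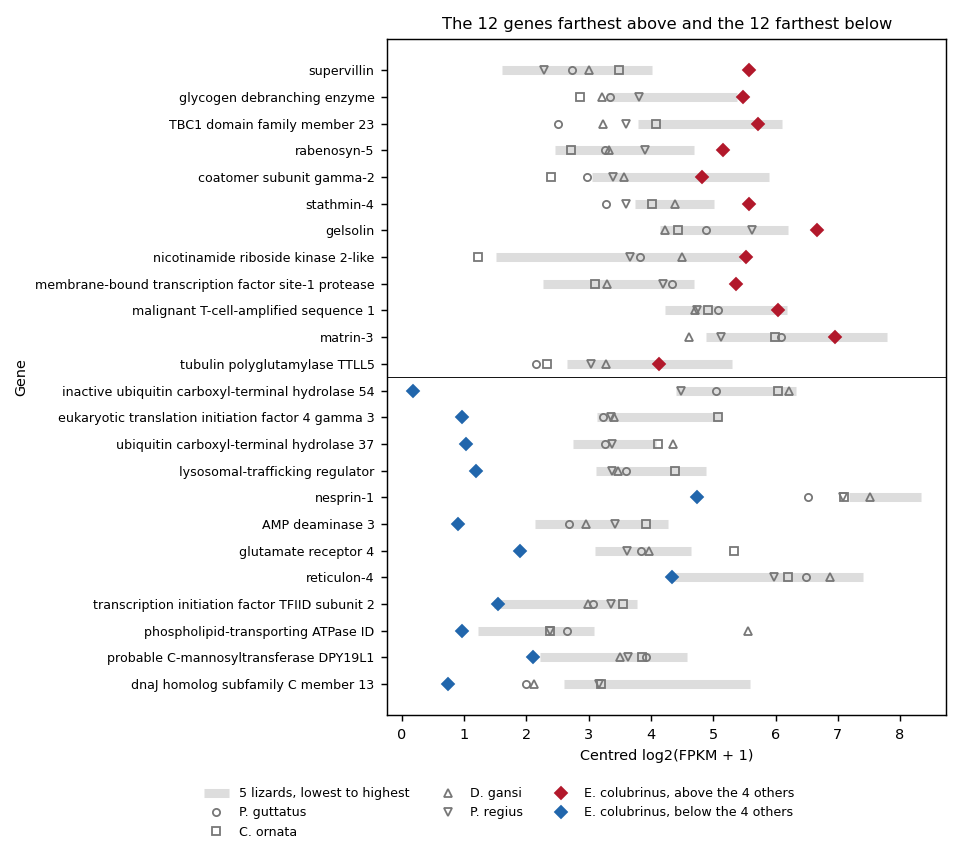
Centred log2(FPKM + 1) of the 12 genes farthest above and the 12 farthest below the range of the 4 other snakes, with E. colubrinus as filled diamonds, the 4 other snakes as open symbols and the span of the 5 lizards as grey bars. The diamond of inactive ubiquitin carboxyl-terminal hydrolase 54 is the farthest from the other snakes, with a gap of 4.30.

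The genes farthest below the range had larger gaps. Inactive ubiquitin carboxyl-terminal hydrolase 54, a member of the deubiquitinase family annotated as lacking its activity, was at 0.5 FPKM in E. colubrinus against 36.6 in P. guttatus, 45.6 in C. ornata, 58.2 in D. gansi and 24.98 in P. regius, and the lizards were at 16.1 to 43.6 FPKM. The value of 0.5 FPKM stands 30 times among the 10 species, 8 of them in the 4 other snakes and this 1 in E. colubrinus, and the methods give it as the threshold for retaining orthologs, so that the difference of -5.27 ± 0.90 rests on 1 value at that threshold. Eukaryotic translation initiation factor 4 gamma 3, a scaffold of the complex that brings ribosomes to capped mRNA, was at 1.6 FPKM against 9.69 in P. guttatus, 22.9 in C. ornata, 7.44 in D. gansi and 11 in P. regius (-2.80 ± 0.92). Ubiquitin carboxyl-terminal hydrolase 37, a deubiquitinase known from the cell cycle, was at 1.71 FPKM against 9.87 in P. guttatus, 11.3 in C. ornata, 15.3 in D. gansi and 11.1 in P. regius (-2.75 ± 0.81). All 3 were below all 9 other species.

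Several large proteins of organelles and nuclear anchorage were among them. Nesprin-1, a giant protein that links the nuclear envelope to actin and whose loss in humans causes a recessive cerebellar ataxia, was at 34.4 FPKM in E. colubrinus against 104 in P. guttatus, 96.7 in C. ornata, 144 in D. gansi and 157 in P. regius, with the lizards at 66.3 to 238 FPKM. E. colubrinus was the lowest of the 10 species. The difference for nesprin-1 was -2.32 ± 0.78. Lysosomal-trafficking regulator, which sets the size of lysosomes and related organelles, was at 2.03 FPKM against 12.8 in P. guttatus, 13.8 in C. ornata, 7.8 in D. gansi and 11.1 in P. regius (-2.52 ± 0.79). DnaJ homolog subfamily C member 13, an endosomal chaperone partner, was at 1.22 FPKM against 2.47 to 9.48 (-1.88 ± 0.84). These 3 genes were below all 9 other species.

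The remaining genes of this group acted in several compartments. Glutamate receptor 4, the GluA4 subunit of AMPA receptors that in mammals is found in granule cells and Bergmann glia, was at 3.95 FPKM in E. colubrinus against 15.3 in P. guttatus, 27.5 in C. ornata, 11.5 in D. gansi and 13.3 in P. regius (-2.29 ± 0.88). AMP deaminase 3, which converts AMP to IMP, was at 1.48 FPKM against 6.29 in P. guttatus, 9.69 in C. ornata, 5.16 in D. gansi and 11.5 in P. regius (-2.34 ± 0.81). Both lay below all 9 other species. Reticulon-4, known as Nogo, a protein of the endoplasmic reticulum and of myelin that limits neurite growth in mammals, was at 26.01 FPKM against 102 in P. guttatus, 51.4 in C. ornata, 92.7 in D. gansi and 72.5 in P. regius (-2.05 ± 0.77), inside the lizard span. Transcription initiation factor TFIID subunit 2 was at 2.88 FPKM against 5.34 to 10.98, and probable C-mannosyltransferase DPY19L1, which in mice is needed for radial migration of cortical neurons, at 4.74 FPKM against 8.04 to 16.3. Phospholipid-transporting ATPase ID was at 1.6 FPKM against 6.14 in P. guttatus, 2.69 in C. ornata, 36.3 in D. gansi and 5.06 in P. regius, and its difference of -2.27 was -1.50 without D. gansi. All 12 were below the range in each of the 4 scalings.

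Most genes of Purkinje cell signalling lay inside the range of the other snakes, with one channel above it and one below it in all 4 scalings. Of the 11 rows measured, 1 lay above the range (9.09%, against 15.2% of all genes), 3 below (27.3%, against 20.6%) and 7 inside, and the median difference was -0.27 against -0.11 over all genes. The order turned to 3 above and 1 below without centring, and with quantile normalization 3 were above and 3 below. The T-type calcium channel subunit alpha-1G (Cav3.1), which opens at low voltage and shapes burst firing of Purkinje cells in mammals, was at 22.5 FPKM in E. colubrinus against 1.96 in P. guttatus, 1.84 in C. ornata, 9.54 in D. gansi and 8.09 in P. regius. It was above all 9 other species, with the lizards at 0.5 to 3.55 FPKM and a difference of 1.63 ± 0.98. The inositol 1,4,5-trisphosphate receptor type 1, the calcium release channel for which Purkinje cells are the richest source in mammals, was at 34.9 FPKM in E. colubrinus against 58.5 in P. guttatus, 63.3 in C. ornata, 156 in D. gansi and 109 in P. regius. It was the lowest of the 5 snakes in every scaling (-1.84 ± 0.89), while the lizards spanned 1.38 to 88.8 FPKM.

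The receptor and the lipase upstream and beside it were less far from the other snakes. Metabotropic glutamate receptor 1, which starts that calcium release at the parallel fibre synapse, was at 22.8 FPKM in E. colubrinus against 30.4 in P. guttatus, 21.6 in C. ornata, 27.4 in D. gansi and 23.1 in P. regius, below the range by 0.21 with centring and inside it as deposited. The sn1-specific diacylglycerol lipase alpha, which makes the endocannabinoid 2-arachidonoylglycerol, was at 19.5 FPKM against 33.9 in P. guttatus, 19.5 in C. ornata, 40.9 in D. gansi and 21.8 in P. regius. It was likewise inside the range as deposited and below it once centred, by 0.34. With quantile normalization both genes were below the range as well. In both genes the FPKM value of E. colubrinus was no lower than that of C. ornata.

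The other 7 rows of this list lay inside the range. Glutamate receptor 1, an AMPA receptor subunit, was at 39.4 FPKM in E. colubrinus against 6.76 to 46.6 in the other snakes. The GABA type B receptor subunits 1 and 2, which together form the receptor for slow inhibition, were at 91.6 FPKM against 36.6 to 165 and at 42.1 FPKM against 17.04 to 94.8. The calcium-activated potassium channel subunit alpha-1 (BK channel) was at 49.9 FPKM against 34.4 to 48.3, which put it above the range as deposited and inside it with centring. Ryanodine receptor 1, a second calcium release channel, was at 10.3 FPKM against 4.2 to 30.1. The phospholipase 1-phosphatidylinositol 4,5-bisphosphate phosphodiesterase beta-1 had 2 rows under 1 name, at 43.7 FPKM against 7.69 to 38 and at 10.4 FPKM against 1.42 to 22.4, and it cannot be told which is the true ortholog. Enzymes of this family join metabotropic glutamate receptor 1 to calcium release, and whether the beta-1 form does so in these cells was not tested. Both rows were higher than the mean of the other snakes (differences of 0.84 and 0.40), the first above the range as deposited.

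Genes of neuronal migration and positioning had no member above the range. Of the 14 measured, 4 lay below (28.6%, near the 20.6% of all genes) and 10 inside, 12 were lower than the mean of the other snakes, as were 352 of all 630 genes, and the median difference was -0.45 against -0.11. Without centring the same list had 1 member above and 1 below, and with quantile normalization 1 above and 3 below. The 4 genes below the range were all adhesion or guidance receptors of the neuronal surface. So were members inside it, such as contactin-2, neogenin and netrin receptor UNC5A, so this trait follows from how the list was built. Of the 4 genes, only neurofascin was below in all 4 scalings.

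Neurofascin, which anchors the axon initial segment and, in mammals, guides basket cell axons to Purkinje cells, was at 32.5 FPKM in E. colubrinus against 44.03 in P. guttatus, 34.8 in C. ornata, 83.5 in D. gansi and 73.4 in P. regius. It was the lowest snake in all 4 scalings and, with centring, the lowest of all 10 species (-1.27 ± 0.83). Neural cell adhesion molecule 1 was at 17.4 FPKM against 35.4 in P. guttatus, 16.8 in C. ornata, 139 in D. gansi and 39.9 in P. regius, below the range with centring but above C. ornata as deposited, and its difference of -1.77 became -1.13 without D. gansi. Neural cell adhesion molecule L1, an adhesion molecule of growing axons, was at 43.7 FPKM against 96.5 in P. guttatus, 63.1 in C. ornata, 100.2 in D. gansi and 40.8 in P. regius, below the range by 0.09 with centring and inside it as deposited. Plexin-A2, a semaphorin receptor that in mice controls migration of granule cells, was at 13.3 FPKM against 12.97 in P. guttatus, 23.7 in C. ornata, 41.7 in D. gansi and 39.3 in P. regius, below by 0.19 with centring and inside as deposited.

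The other 10 members lay inside the range, among them the best known positioning signals. Reelin, the secreted protein of granule cells that places Purkinje cells in mammals, was at 39.5 FPKM in E. colubrinus against 56.2 in P. guttatus, 26.8 in C. ornata, 321 in D. gansi and 33.8 in P. regius. With centring it was inside the range by only 0.03, near its lower edge. Its difference of -1.20 ± 1.31 became -0.35 without D. gansi. Semaphorin-6A, a ligand of plexin-A2, was at 55.2 FPKM against 25.5 to 101. Astrotactin-1, with which migrating granule neurons hold on to glial fibres, was at 45.6 FPKM against 27.3 to 44.9, above the range as deposited and inside it with centring, and its partner astrotactin-2 was at 44.4 FPKM against 13.4 to 80.4. Contactin-2 was at 15.5 FPKM against 3.22 to 37.9 and the NT-3 growth factor receptor (TrkC) at 25.3 FPKM against 9.53 to 57.4. The guidance receptors neogenin (19.2 FPKM against 9.87 to 38), netrin receptor UNC5A (35.98 against 6.93 to 48.4) and roundabout homolog 3 (27.6 against 11.1 to 119.9), and the matrix protein spondin-1 (35.1 against 6.11 to 59.6), were also inside.

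**Figure D4:**
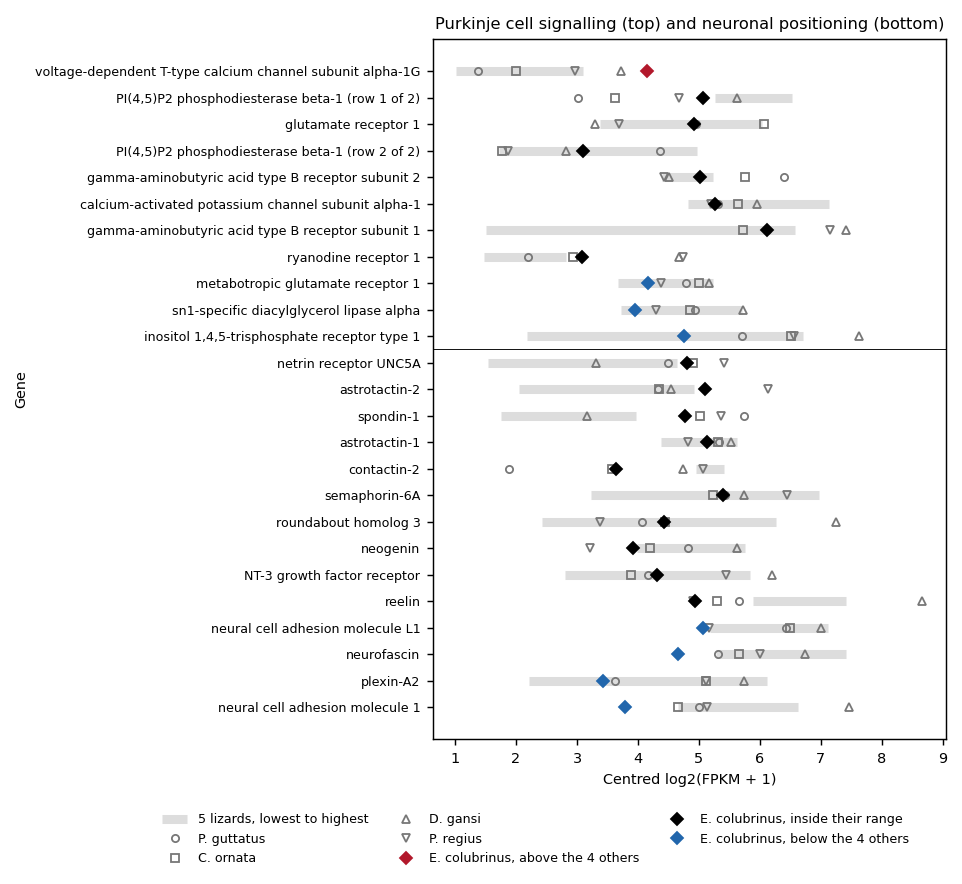
Centred log2(FPKM + 1) of the 11 rows of Purkinje cell signalling (above the line) and the 14 genes of neuronal migration and positioning (below it), with E. colubrinus as filled diamonds, the 4 other snakes as open symbols and the span of the 5 lizards as grey bars. T-type calcium channel subunit alpha-1G is the only diamond above the other snakes, and 7 genes are below them, of which 2 stay below in all 4 scalings: inositol 1,4,5-trisphosphate receptor type 1 and neurofascin.

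The study named 12 of these genes for a role in locomotory behaviour, a list drawn from the same samples and therefore not independent of them. In E. colubrinus 2 lay above the range (16.7%, near the 15.2% of all genes) and 2 below (16.7%, against 20.6% of all genes). The other 8 were inside, and the median difference was -0.08 against -0.11 over all genes. Metabotropic glutamate receptor 5, a relative of receptor 1 whose expression in mammalian cerebellum lies mostly in Golgi cells and the nuclei, was at 56.7 FPKM in E. colubrinus against 19.3 in P. guttatus, 13.7 in C. ornata, 22.3 in D. gansi and 26.9 in P. regius. It was above all 9 other species (0.95 ± 0.76). Spatacsin, a lysosomal protein mutated in hereditary spastic paraplegia, was at 26.7 FPKM against 16.8 in P. guttatus, 10.8 in C. ornata, 4.78 in D. gansi and 3.91 in P. regius, and its difference of 1.14 became 0.75 without P. regius. Below the range with centring, and inside it as deposited, were metabotropic glutamate receptor 1 and striatin, a scaffold of signalling kinases and phosphatases at 16.4 FPKM against 45.9 in P. guttatus, 14.2 in C. ornata, 17.4 in D. gansi and 16.8 in P. regius. Inside the range were alsin, astrotactin-1, contactin-2, ephrin type-A receptor 4, hamartin, nuclear receptor coactivator 2, pumilio homolog 1 and unconventional myosin-Va, the last, a vesicle motor of Purkinje dendrites, at 34.8 FPKM against 10.5 to 39.4.

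In the lists that follow, the 2 members farthest outside on each side were named by rule and any others after their values were seen. Each count is to be read against all genes, of which 15.2% lay above and 20.6% below the range. Among glutamate and GABA receptors and their scaffolds, 3 of 21 lay above the range and 4 below, close to the shares of all genes. The 3 above were metabotropic glutamate receptors 3 and 5 and neuroligin-3. Receptor 3, which in mammals is found in glia and Golgi cells, was at 19.9 FPKM against 12.4 in P. guttatus, 6.01 in C. ornata, 7.58 in D. gansi and 13.9 in P. regius, and neuroligin-3, a postsynaptic adhesion protein that pairs with neurexins, was at 17.6 FPKM against 6.49 in P. guttatus, 3.98 in C. ornata, 5.07 in D. gansi and 11.7 in P. regius. All 3 were above all 9 other species. Disks large homolog 1 (SAP97), a scaffold that binds AMPA receptors, was below at 1.82 FPKM against 7.32 in P. guttatus, 1.9 in C. ornata, 4.48 in D. gansi and 18.9 in P. regius (-1.86 ± 0.91), with C. ornata at nearly the same FPKM. Besides glutamate receptor 4, described above, the genes below were metabotropic glutamate receptor 1 and neurabin-2, at 29.7 FPKM against 28.7 to 95.7 and thus inside as deposited.

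Presynaptic genes had 0 of 15 above the range and 4 below it (26.7%), although their median difference of 0.07 was above the -0.11 of all genes. Without centring 4 were above and 1 below, and with quantile normalization 3 and 3. Calcium-dependent secretion activator 1, which primes dense-core vesicles for release, was the lowest of the snakes in all 4 scalings at 56.3 FPKM in E. colubrinus against 72.4 in P. guttatus, 58.1 in C. ornata, 161 in D. gansi and 61.3 in P. regius, a difference of -1.02 that became -0.61 without D. gansi. Synaptojanin-1, a lipid phosphatase that uncoats synaptic vesicles, was at 31.4 FPKM against 29.1 in P. guttatus, 23.6 in C. ornata, 40.9 in D. gansi and 32.2 in P. regius, below by 0.12 with centring but with a difference of 0.02 in the opposite direction without it. Dynamin-2 (21.5 FPKM against 12.9 to 47.5) and liprin-alpha-2 (8.67 against 4.42 to 46.2) were below with centring and inside as deposited.

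Of 20 ion channels, 6 lay below the range (30%, against 20.6% of all genes) and 2 above (10%, against 15.2%), with a median difference of -0.25. Without centring 4 were below and 5 above, and with quantile normalization 6 below and 3 above. Of the 4 voltage-dependent calcium channel alpha-1 subunits, the T-type alpha-1G lay above, the L-type alpha-1C below, and the N-type alpha-1B (22.02 FPKM against 2.6 to 101.5) and R-type alpha-1E (7.9 FPKM against 2.19 to 13.1) inside. The L-type subunit alpha-1C (Cav1.2) was at 15.7 FPKM in E. colubrinus against 33.8 in P. guttatus, 26.9 in C. ornata, 22.5 in D. gansi and 32.9 in P. regius (-1.34 ± 0.75). Ryanodine receptor 2, the calcium release channel common in heart and brain, was at 21.4 FPKM against 30.1 in P. guttatus, 67.8 in C. ornata, 62.05 in D. gansi and 48.2 in P. regius (-1.70 ± 0.90). Both were below all 9 other species in E. colubrinus. Anoctamin-7, a member of a family of chloride channels and lipid scramblases, was at 33.9 FPKM against 6.72 in P. guttatus, 2.44 in C. ornata, 19.3 in D. gansi and 7.17 in P. regius, just above D. gansi once centred (gap 0.04).

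Of 19 ion pumps and solute carriers, 4 lay above the range and 6 below it. Plasma membrane calcium-transporting ATPase 3, a neuronal pump that expels calcium and is mutated in a human congenital ataxia, was at 34.4 FPKM in E. colubrinus against 102 in P. guttatus, 66.1 in C. ornata, 115.9 in D. gansi and 69.2 in P. regius (-1.81 ± 0.81). It was the lowest snake in all 4 scalings and below all 9 other species with centring. Its relative ATPase 1 was at 28.9 FPKM against 16.9 to 38.8, below the range with centring and inside it as deposited. The potassium chloride cotransporters solute carrier family 12 members 5 (KCC2, 40.8 FPKM against 24.8 to 80.2) and 6 (KCC3, 10.6 against 7.51 to 15.8) were below with centring and inside as deposited. Above the range stood solute carrier family 45 member 4 at 16.5 FPKM against 4.92 in P. guttatus, 4.63 in C. ornata, 5.85 in D. gansi and 5.57 in P. regius and copper-transporting ATPase 1 at 12.6 FPKM against 4.99 in P. guttatus, 1.24 in C. ornata, 5.86 in D. gansi and 2.36 in P. regius. In the first of these the 4 other snakes were within a narrow span.

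Axon guidance and neural cell adhesion genes had 1 of 24 above the range (4.17%) and 7 below (29.2%), with a median difference of -0.30. The counts were 2 above and 2 below without centring, and 1 above and 6 below with quantile normalization. The gene below in all 4 scalings with the widest gap was semaphorin-5B, a transmembrane guidance cue, at 26.1 FPKM in E. colubrinus against 77.1 in P. guttatus, 83.8 in C. ornata, 92.9 in D. gansi and 48.02 in P. regius (-1.97 ± 0.86). The one above was contactin-5, a neuronal adhesion molecule anchored to the membrane by a lipid, at 22.2 FPKM against 6.8 in P. guttatus, 4.13 in C. ornata, 9.31 in D. gansi and 10.2 in P. regius (0.98 ± 0.78), above all 9 other species.

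Among 19 cadherins and protocadherins 2 lay above and 5 below, and their median difference of -0.60 was the lowest of the 17 function lists. Of the giant protocadherins Fat 1, Fat 2 and Fat 3, Fat 1 lay above the range and Fat 2 below it. This pairing was made after the values were seen, and Fat 3 was not above the range. Fat 2, which in mammals is made by granule cells and sits on their parallel fibres, was at 33.5 FPKM in E. colubrinus against 120.0 in P. guttatus, 75.4 in C. ornata, 334 in D. gansi and 42.98 in P. regius (-2.16 ± 1.16). Fat 1 was at 33.3 FPKM against 12.9 in P. guttatus, 1.77 in C. ornata, 6.08 in D. gansi and 26.4 in P. regius (1.37 ± 1.00), above P. regius by 0.14 only. Protocadherin-7 was at 2.85 FPKM against 16.7 in P. guttatus, 7.04 in C. ornata, 24.6 in D. gansi and 6.15 in P. regius (-2.24 ± 0.97), below all 9 other species, and cadherin-13, a cadherin without a cytoplasmic tail, was at 25.7 FPKM against 9.53 in P. guttatus, 2.7 in C. ornata, 4.67 in D. gansi and 12.6 in P. regius (1.33 ± 0.80).

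The actin, myosin and membrane skeleton list had 5 of 34 above and 6 below, near the shares of all genes. Besides supervillin and gelsolin, the genes above included talin-2 (21.4 FPKM against 1.71 to 6.7) and tensin-1 (43.4 FPKM against 8.27 to 29.6), which both tie integrins to actin. Besides nesprin-1, the genes below included unconventional myosin-VI, the motor that moves towards the minus end of actin, at 3.42 FPKM against 5.39 in P. guttatus, 3.77 in C. ornata, 5.51 in D. gansi and 19.9 in P. regius (-1.38 ± 0.87). Microtubule-actin cross-linking factor 1 was at 3.29 FPKM against 76.1 in P. guttatus, 42.6 in C. ornata, 8.72 in D. gansi and 4.03 in P. regius, close to P. regius, and a second row under the same name with "-like" was among the doubtful names.

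Microtubule, motor and centrosome genes had 6 of 18 below the range (33.3%, against 20.6% of all genes) and 2 above (11.1%, against 15.2%), with a median difference of -0.57. The counts were 2 below and 4 above without centring, and 6 below and 3 above with quantile normalization. The main retrograde motor of axons, cytoplasmic dynein 1 heavy chain 1, was at 58.7 FPKM in E. colubrinus against 114.9 in P. guttatus, 72.9 in C. ornata, 110.1 in D. gansi and 77.4 in P. regius, the lowest of the snakes in all 4 scalings (-1.15 ± 0.78). Rootletin, which forms the fibres that anchor cilia, was at 2.4 FPKM against 3.45 in P. guttatus, 11.2 in C. ornata, 21.8 in D. gansi and 4.75 in P. regius (-1.95 ± 1.14). Myomegalin, a protein of the centrosome and Golgi, was at 3.49 FPKM against 50.1 in P. guttatus, 2.98 in C. ornata, 6.65 in D. gansi and 15.2 in P. regius, below with centring but above C. ornata as deposited.

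Membrane trafficking genes were the list with the most members above the range relative to those below, 8 above (25%) and 3 below (9.38%) of 32, and 8 above and 2 below in all 4 scalings. The median difference was 0.22 against -0.11. Among the 6 subunits of the exocyst, the complex that tethers secretory vesicles to the plasma membrane, 3 were above: component 5 (50.6 FPKM in E. colubrinus against 10.6 to 16.99), 6B (26.5 against 2.41 to 18.6) and 7 (35.6 against 7.52 to 28). The other 3 were inside, and this grouping was made after their values were seen. WASH complex subunit 7, which drives actin on endosomes, was at 23.9 FPKM against 4.17 in P. guttatus, 4.38 in C. ornata, 5.49 in D. gansi and 13.04 in P. regius. At the early endosome, rabenosyn-5 was above the range and early endosome antigen 1, another effector of Rab5, was below it at 15.6 FPKM against 23.9 in P. guttatus, 44.3 in C. ornata, 26.9 in D. gansi and 58.5 in P. regius (-1.67 ± 0.85).

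Chromatin modifiers had 8 of 39 above the range and 11 below, of which 6 and 4 were so in all 4 scalings. The histone demethylases 5C, which removes methyl groups from lysine 4 of histone H3, and 4A were at 45.98 FPKM in E. colubrinus against 25.9 in P. guttatus, 14.6 in C. ornata, 12.1 in D. gansi and 15.2 in P. regius, and at 44.2 FPKM against 25.4 in P. guttatus, 9.78 in C. ornata, 7.58 in D. gansi and 16.8 in P. regius. Histone-lysine N-methyltransferase 2C, a methyltransferase of that lysine, was below the range at 12.9 FPKM against 20.8 in P. guttatus, 28.2 in C. ornata, 81.6 in D. gansi and 34.5 in P. regius (-1.93 ± 0.98). Another methyltransferase of lysine 4, 2A (12.05 FPKM against 1.75 to 7.49, above the range as deposited), and another demethylase of it, 5B (25.6 FPKM against 11.2 to 26.6), were inside the range with centring. Nucleosome-remodeling factor subunit BPTF, which reads methylated lysine 4, was at 15.1 FPKM against 35.2 in P. guttatus, 19.1 in C. ornata, 166 in D. gansi and 24.8 in P. regius, and its difference of -1.90 became -1.16 without D. gansi.

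Splicing and mRNA processing genes were 6 above and 7 below of 27. THO complex subunit 5, which couples transcription to mRNA export, was at 31.6 FPKM in E. colubrinus against 4.91 in P. guttatus, 4.41 in C. ornata, 6.28 in D. gansi and 15.3 in P. regius (1.54 ± 0.82). Both subunits of the CCR4-NOT deadenylase measured were above, subunit 1 at 71.1 FPKM against 8.39 to 34.7 and subunit 10 at 25.5 FPKM against 7.04 to 15.6. Below were double-stranded RNA-specific editase 1 (ADAR2), which edits transcripts of glutamate receptors, at 8.34 FPKM against 19.3 in P. guttatus, 13.97 in C. ornata, 45.8 in D. gansi and 9.5 in P. regius (-1.59 ± 1.02), and regulator of nonsense transcripts 2 at 7.88 FPKM against 9.73 in P. guttatus, 7.91 in C. ornata, 17.7 in D. gansi and 15.7 in P. regius. Splicing factor 3B subunit 2 was at 10.7 FPKM against 15.5 in P. guttatus, 10.1 in C. ornata, 35.7 in D. gansi and 16.5 in P. regius, above C. ornata as deposited and below it once centred, and its difference of -1.18 became -0.77 without D. gansi.

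Translation and proteasome genes had the largest share above the range among the 17 lists, 5 of 17 (29.4%), with 4 below (23.5%). The scaffold eukaryotic translation initiation factor 4 gamma 1 was at 71.2 FPKM in E. colubrinus against 5.62 in P. guttatus, 6.88 in C. ornata, 26.6 in D. gansi and 33.3 in P. regius (1.76 ± 1.06), the opposite side from its paralog gamma 3. Translation initiation factor 3 subunit C was also above, at 74.9 FPKM against 21.1 to 36.9. Eukaryotic elongation factor 2 kinase, which slows elongation when calcium rises, was below at 5.2 FPKM against 19.9 in P. guttatus, 6.04 in C. ornata, 218 in D. gansi and 14.4 in P. regius, a difference of -2.61 that became -1.52 without D. gansi.

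Ubiquitin system genes had 0 of 25 above the range and 4 below it with centring, but 11 above and 2 below without it. With quantile normalization they had 5 above and 3 below. Besides ubiquitin carboxyl-terminal hydrolase 37, the deubiquitinase FAF-X (USP9X), which in mammals acts in neuronal development, was below in all 4 scalings at 16.5 FPKM in E. colubrinus against 47.8 in P. guttatus, 25.6 in C. ornata, 45.2 in D. gansi and 31.7 in P. regius (-1.61 ± 0.78). Energy and lipid metabolism had 4 above and 4 below of 20, 11 and 1 without centring, and 8 and 1 with quantile normalization. Its median difference of 0.36 was the highest of the function lists. Mitofusin-2, which fuses mitochondria, was at 49.3 FPKM against 26.1 in P. guttatus, 5.87 in C. ornata, 15.3 in D. gansi and 13.9 in P. regius (1.27 ± 0.83), and adenylate kinase isoenzyme 1, which balances adenine nucleotides, at 51.5 FPKM against 9.14 to 18.3. A subunit of respiratory complex I, NADH dehydrogenase [ubiquinone] 1 beta subcomplex subunit 10, was at 81.97 FPKM against 171 in P. guttatus, 75.4 in C. ornata, 95.5 in D. gansi and 95.6 in P. regius, below with centring and inside as deposited.

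**Figure D5:**
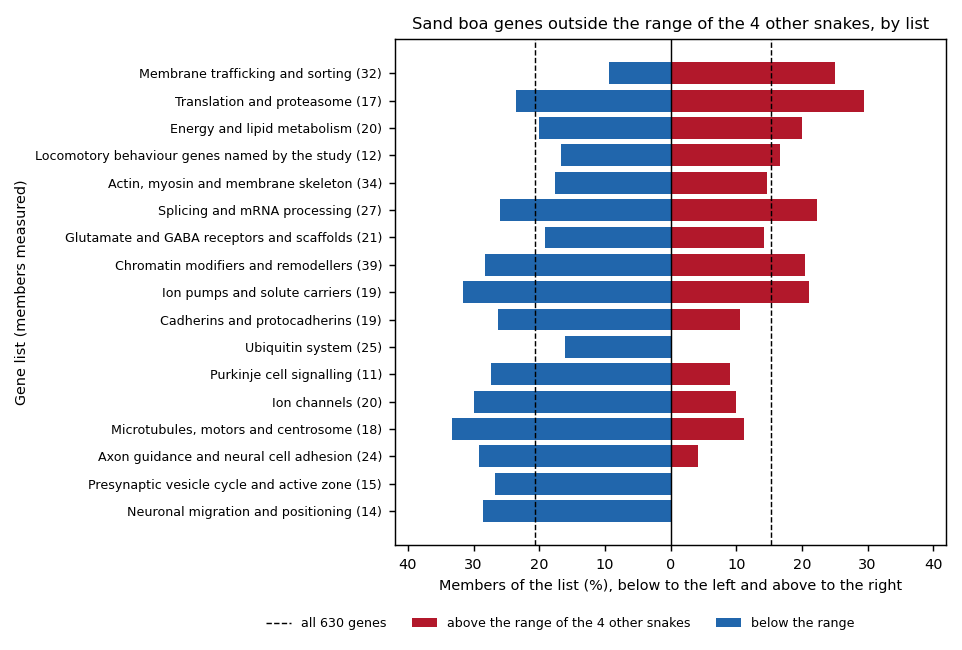
Share of each function list's members that lay above (red, right) or below (blue, left) the range of the 4 other snakes in E. colubrinus, with the number measured in brackets and dashed lines at the shares of all 630 genes, 15.2% above and 20.6% below. Membrane trafficking and sorting is at the top with 25% above and 9.38% below, and without centring the bars would shift to the right, as for all genes (199 above, 58 below).

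Relatives of one family lay on opposite sides in several cases, picked out after the values were seen. AMP deaminase 2 was above at 24.5 FPKM in E. colubrinus against 6.16 to 15.2 where AMP deaminase 3 was below. Reticulon-3 was above at 177 FPKM against 4.07 in P. guttatus, 68.97 in C. ornata, 57.1 in D. gansi and 81.2 in P. regius where reticulon-4 was below. Inactive ubiquitin carboxyl-terminal hydrolase 53 was above at 17.9 FPKM against 5.32 to 10.1 where hydrolase 54 was at the threshold value. TFIID subunits 1 and 2, which are not related in sequence but belong to 1 complex, were above (27.3 FPKM against 2.99 to 16.8) and below. Values of paralogs rest on separate assemblies in each species, so reads shared between copies, or a partial transcript, could move a value from one row to the other, and this was not tested. Outside all lists, and also chosen after its value was seen, the neuropeptide pituitary adenylate cyclase-activating polypeptide (PACAP), which in mammals protects developing granule cells, was at 42.5 FPKM in E. colubrinus against 15.7 in P. guttatus, 12.2 in C. ornata, 16.1 in D. gansi and 16.6 in P. regius.

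Markers of cell types gave no uniform picture of the tissue. All 4 Purkinje cell markers were outside the range, T-type calcium channel subunit alpha-1G above and inositol 1,4,5-trisphosphate receptor type 1, metabotropic glutamate receptor 1 and diacylglycerol lipase alpha below, and their sum was 99.8 FPKM in E. colubrinus against 106 to 234 FPKM in the other snakes. These 4 are the only rows outside the range among the 11 of Purkinje cell signalling, of which 7 were inside. Markers were chosen with earlier results known, so that all 4 being outside may come from the choice. As deposited, metabotropic glutamate receptor 1 and diacylglycerol lipase alpha were inside the range, and without inositol 1,4,5-trisphosphate receptor type 1 the sum of the other 3 markers was 64.9 FPKM against 42.9 to 77.8 FPKM, so that the low sum rests on that 1 gene. The 3 granule cell markers, protocadherin Fat 2, L1 and reelin, had 2 below and 1 inside, with a sum of 117 FPKM against 118 to 755 FPKM. Fat 2 and reelin had their highest values in D. gansi, so that the width of that range rests on 1 snake. In whole tissue, fewer cells of a type and less RNA per cell cannot be told apart. Calbindin and the ZIC genes, common markers of Purkinje and granule cells, were not analysed here.

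Glial and vessel markers were similarly mixed. Of 5 astroglial markers 1 lay above and 2 below, with a sum of 107 FPKM in E. colubrinus against 47.6 to 133 FPKM, and tenascin, a matrix protein of glia, was at 2.24 FPKM against 16.4 in P. guttatus, 5.63 in C. ornata, 8.07 in D. gansi and 5.56 in P. regius (-2.01 ± 0.83). Of 5 markers of the oligodendrocyte lineage 1 lay above, gelsolin, and 2 below, with a sum of 179 FPKM against 50.7 to 156 FPKM. Gelsolin made up most of that sum in E. colubrinus, so that its place above the other snakes rests on that 1 gene. Tenascin-R, a matrix protein made by oligodendrocytes, was at 2.09 FPKM against 18.8 in P. guttatus, 2.59 in C. ornata, 6.56 in D. gansi and 45.1 in P. regius (-2.54 ± 1.08), below all 9 other species, so the 2 markers with the largest differences went opposite ways. Of 8 markers of vessel, meninges or muscle 1 lay above, laminin subunit alpha-5 at 22.6 FPKM against 17.6 in P. guttatus, 2.56 in C. ornata, 12.3 in D. gansi and 18.1 in P. regius (a difference of 0.53, and 0.10 without C. ornata), and 7 were inside, with a sum of 100.03 FPKM against 60.5 to 184 FPKM. Whether the makeup of the tissue had a part in the positions above was not tested.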

How the data were processed

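Cerebellar RNA of 10 squamate species was sequenced, and the deposited table holds 1 FPKM value per species for 630 orthologous genes. Following the methods of the study, the authors trimmed reads with Trimmomatic, filtered ribosomal reads with SortMeRNA, assembled each species separately with Trinity, predicted proteins with TransDecoder, paired orthologs with OrthoFinder and computed the deposited FPKM with RSEM, retaining orthologs above 0.5 FPKM in at least 1 sample. Trimmomatic and RSEM are also listed in the submitters' processing notes. Libraries were sequenced in duplicate, and the step that merged duplicates into 1 value was not stated. Assembly per species means that a partial transcript or a shared paralog changes a value in 1 species only. Read depth cannot be taken from FPKM, so no counting interval is given.

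Species were taken from the sample labels, the deposited columns were used as they stood, and no 2 columns were identical. Values were transformed to log2(FPKM + 1), with a pseudocount of 1 that understates the change of low genes, and each species was centred to the same median. Genes outside the lowest to highest of the 4 other snakes were counted, and E. colubrinus was compared with them by limma 3.58.1 in R 4.3.3 (Benjamini-Hochberg over 630 genes, threshold 0.05), tested on simulated data. The study states no test between species. Ancestry, individuals and technical variation all enter the spread that these p-values rest on. Other steps used Python 3.11.15, numpy 2.4.6, pandas 2.3.3 and matplotlib 3.10.9. Alternatives were other scalings, pseudocounts of 0.1 and 5, a mean of at least 5 FPKM, no snake at or under 0.5 FPKM, leaving out 22 genes with doubtful names, leaving out each snake, and other limma fits.

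Genes were named by rule: the 12 farthest above and the 12 farthest below, all members of the lists on Purkinje cell signalling and neuronal migration, the 12 locomotory genes of the study, up to 10 genes past the limma threshold on each side (none passed), and in each other list the 2 farthest on each side. Members, lists and rules were chosen with earlier results of these data known. No genome or gene coordinates were used, and genes carry the protein names of the table.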

Additional observations from a re-analysis of the deposited data

Results flagged for a closer look

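Among the 97 genes named by rule, each of the 4 other snakes was checked for a value far from the other 3, on the centred log2 scale. In 8 genes 1 snake stood apart by Dixon's criterion for 4 samples (0.829), and chance alone gives about 1 in 20. D. gansi stood apart in 4 genes, always high: phospholipid-transporting ATPase ID was at 36.29 FPKM against 2.69 to 6.14 in the other 3, neural cell adhesion molecule 1 at 138.7 FPKM against 16.81 to 39.87, nucleosome-remodeling factor subunit BPTF at 166.45 FPKM against 19.12 to 35.18, and splicing factor 3B subunit 2 at 35.72 FPKM against 10.06 to 16.47. C. ornata stood apart in 3 genes. Eukaryotic translation initiation factor 4 gamma 3 was at 22.89 FPKM there against 7.44 to 11 in the other 3, laminin subunit alpha-5 was at 2.56 FPKM against 12.33 to 18.15, and the L-type calcium channel subunit alpha-1C, at 26.87 FPKM against 22.52 to 33.75, was high only once centred. Astrotactin-2 was at 80.43 FPKM in P. regius against 13.38 to 21.83 in the other 3. Leaving out a snake cannot bring a gene back into the range, so genes outside stay outside. Among the 74 named genes outside the range, 9 had a difference that moved by over 1.5 times without 1 snake, 7 of them without D. gansi, 1 without C. ornata and 1 without P. regius.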

How the results depend on the processing

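Scaling moved the counts most. Without centring, 199 genes lay above and 58 below the range, 36 above and 8 below by over 1 log2 unit, and 143 above and 17 below all 9 other species. With quantile normalization 24 were above by over 1 log2 unit and 78 above all 9 other species. With the species scaled to the same sum, the counts were 167 above, 86 below, 22 and 11 by over 1 log2 unit, and 83 and 44 against all 9 other species. A pseudocount of 5 left 10 below by over 1 log2 unit. Leaving out 1 snake, which narrows the range, gave 115 to 145 genes above, 13 to 25 above by over 1 log2 unit and 34 to 43 below by as much. With all 10 species in the limma fit 1 gene, inactive ubiquitin carboxyl-terminal hydrolase 54, passed as lower (adjusted p = 0.0187), and its value is at the 0.5 FPKM threshold. The smallest adjusted p was 0.988 once genes with a snake at or under 0.5 FPKM were left out. Other counts stayed within 1.5 times. Of 1353 differences of the 97 named genes under alternatives, 1291 moved by less than the spread of the 4 other snakes. Another 61 moved by more, 28 of them without centring, and 1 was counted as reversed, synaptojanin-1, at 0.02491 without centring. Only genes outside the range could be counted as reversed. Several genes inside it also changed sign without centring, among them contactin-2 (-0.18 to 0.34) and GABA type B receptor subunit 2 (-0.25 to 0.26). Leaving out centring adds the same amount to the difference of every gene, so that small negative differences must change sign. Why the species differed in scale was not tested.

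No paired analysis was possible because each species has 1 column and the labels give no shared replicate numbers. With 1 column for E. colubrinus, variation within the species is unknown, and differences in assembly, ortholog choice or library scale cannot be told apart from differences between species.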
